A study of Mus musculus with 12 samples.

Results

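The 9 genes described here, Poli, Stard6, Dcc, Mex3c, Smad4, Elac1, Me2, Rab27b and Ccdc68, lie around Mbd2 on mouse chromosome 18, and they were chosen for that position from the 18193 genes on the array that a single-gene probe set represents. Every single-gene probe set annotated to 1 of these symbols was taken, which gave 22 probe sets of 34945. In the order of protein-coding genes of the GRCm38.p6 RefSeq table, Poli is next to Mbd2 on the side of lower coordinates, followed by Stard6 at 2 places, Rab27b at 5 and Ccdc68 at 6. Dcc is next to Mbd2 on the side of higher coordinates, followed by Mex3c at 2 places, Smad4 at 3, Elac1 at 4 and Me2 at 5.

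MBD2 is a reader of methylated CpG sites that recruits the NuRD chromatin remodelling complex, and its loss removes 1 link between DNA methylation and gene silencing. Genes next to a deleted locus are examined in knockout studies because they are inherited together with the deletion. In a mouse line backcrossed from another strain they can carry that strain's alleles, and a deletion or a selection cassette can also alter transcription nearby. Whether any of this applies to these mice was not tested, since the labels name neither the strain nor the construction of the allele.

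Expression was measured on 12 Affymetrix mouse arrays, 3 in each of 4 groups. The KO leukaemias were GFP+ bone marrow cells from recipients of MBD2-/- cells with Notch1-driven T-cell acute lymphoblastic leukaemia (T-ALL), the WT leukaemias were the same kind of cells with wild-type MBD2, and both were sorted once over 50% of the white blood cells in peripheral blood were GFP+. The KO and WT thymocytes were CD4+CD8+ double-positive (DP) cells sorted from steady-state MBD2-/- and wild-type mice. KO stands for MBD2-/- and WT for wild type. Age, sex, strain and whether samples were separate animals are not stated in the labels, so each p-value measures the spread between samples, which may be technical.

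Intensities are given as deposited, on a linear scale, and differences between groups as log2(intensity + 16). A difference passed when the limma p-value, adjusted by Benjamini and Hochberg over all 27453 probe sets tested, was under 0.05. Of the 22 probe sets, 17 were tested and 5 were too dim (Dcc 1440487_at and 1441572_at, Rab27b 1417214_at and 1417215_at, Ccdc68 1439109_at). An intensity of 35.3, the highest value of an added poly-A control transcript on the arrays that show no signal of these controls, served as the control level. Above it on all 12 arrays were 11 probe sets of 5 genes (Poli, Mex3c, Smad4, Elac1 and Me2), 3 were above it on some arrays, and 8 on none. In such bulk samples fewer cells of a type and less RNA per cell cannot be told apart.

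Several properties of the arrays moved with the groups, and their part in the results was not tested unless a value is given. Signal of the poly-A controls was present on 5 arrays (KO leukaemia 1, WT leukaemias 1 and 2, WT thymocytes 1 and 2) and absent on the other 7, which include all KO thymocytes. The Gapdh 3′ to 5′ ratio, a measure of RNA integrity, ran from 0.964 to 2.98 in KO leukaemias and from 0.969 to 2.48 in WT leukaemias, and from 1.12 to 3.33 in KO thymocytes and from 1.08 to 3.68 in WT thymocytes. Xist was at 32.1 to 40.8 in KO leukaemias and at 3846 to 4819 in WT leukaemias, and Y-linked Eif2s3y at 472 to 574 in KO and 7.01 to 7.59 in WT leukaemias. In thymocytes Xist was at 36.8 to 43.1 in KO and 28.7 to 45.7 in WT cells, and Eif2s3y at 189 to 391 in KO and 209 to 531 in WT cells. WT leukaemias were thus the only group with high Xist and low Eif2s3y, and sex cannot be told apart from genotype in leukaemia, from cell type in WT cells, or from the difference of genotype effects. Cd8a was at 132 to 388 in KO leukaemias, 2123 to 3082 in WT leukaemias, 5233 to 7607 in KO thymocytes and 4844 to 7295 in WT thymocytes. The summed intensity of 9 thymocyte markers was 9054 to 10117 in KO leukaemias, 12764 to 16520 in WT leukaemias, 40069 to 53192 in KO thymocytes and 42360 to 54945 in WT thymocytes. Of the 9, 7 had an array above the control level in KO leukaemias, 8 in WT leukaemias and 9 in thymocytes of either genotype. Rag2 was below it in both leukaemias and Rag1 below it in KO leukaemias. Ptcra lay around it in KO leukaemias (25.7 to 40.7, against 1380 to 1737 in WT leukaemias). Rag1 lay around it in WT leukaemias (33.8 to 42.3). Not every marker was lower in KO leukaemias: Dntt was at 2987 to 4733 in KO and 830 to 1682 in WT leukaemias, and Cd3e at 2337 to 3048 in KO and 1910 to 2349 in WT leukaemias. The sum of 4 mast cell markers was 7010 to 8144 in KO leukaemias and 47.3 to 49.0 in WT leukaemias. It consisted almost wholly of Cpa3 (6912 to 8070 in KO leukaemias), with Fcer1a and Ms4a2 below the control level in all groups. The sum of 4 markers, stromal Col1a1, Col3a1 and Pdgfrb and epithelial Epcam, was 4096 to 5285 in KO and 78.2 to 106 in WT leukaemias. It was mostly Pdgfrb (3822 to 4968 in KO leukaemias). Epcam was at 169 to 357 in KO and 22.8 to 43.0 in WT leukaemias, and Col3a1 was below the control level in all groups. Sums of 6 myeloid markers went the other way, with 199 to 444 in KO and 581 to 997 in WT leukaemias, mostly S100a8 (43.2 to 278 in KO and 367 to 795 in WT leukaemias), with Itgam and Mpo below the control level in all groups.

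The targeted gene itself was low in both KO groups. Mbd2 probe set 1417165_at gave 41.4, 55.7 and 66.0 in KO leukaemias, against 957, 742 and 762 in WT leukaemias. Thymocytes had 67.6, 84.3 and 64.4 in KO cells, against 1372, 993 and 1043 in WT cells. No KO array came near a WT array, and the KO means were 6.63% of WT in leukaemia and 6.35% in thymocytes. The log2 difference was -3.58 (SE 0.17, limma adjusted p = 4.48e-05) in leukaemia and -3.70 (SE 0.16, adjusted p = 0.00216) in thymocytes. The other probe set, 1425803_a_at, averaged 12.1 ± 4.46 in KO and 371 ± 262 in WT leukaemias (SD, n = 3 each; adjusted p = 0.0102), and 15.7 ± 5.24 in KO and 288 ± 172 in WT thymocytes, where it did not pass (adjusted p = 0.318). These groups did not overlap in either cell type.

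Among the flanking genes, 2 of 17 tested probe sets rose in KO leukaemias and 0 fell, against a background of 13.4% of all tested probe sets in either direction (7.92% higher and 5.45% lower). The 2 were Smad4 1422485_at and Rab27b 1439610_at, which make up 11.8% of the 17. Groups did not overlap for 7 of the 17 probe sets, 4 higher and 3 lower in KO, or 41.2%, where 31.6% of all tested probe sets did not overlap. The median log2 difference was -0.04 over the 17 and -0.05 over all probe sets tested. Rab27b 1439610_at reached the test through its KO leukaemias alone. With the replicate number as a block 7 of the 17 passed (41.2%), against 22.5% of all tested probe sets. Nothing is read from either share about the genes as a group, and they are described 1 by 1.

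In DP thymocytes 0 of the 17 passed in limma, with adjusted p from 0.98 to 0.998, and 3 had an unadjusted p under 0.05. Over the whole array only 3 probe sets passed there, a background of 0.0109%. The groups did not overlap for 3 of the 17, Smad4 1422485_at, Elac1 1453061_at and Me2 1426572_at, all lower in KO. These are 17.6% of the 17, where 8.44% of all tested probe sets did not overlap. Their log2 differences were -0.30, -0.37 and -0.58 in that order. Among thymocyte arrays without poly-A signal, all KO arrays and WT thymocyte 3, they were -0.18, -0.27 and -0.35. The median log2 difference was -0.07 over the 17 and -0.02 over all probe sets tested.

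**Figure D1:**
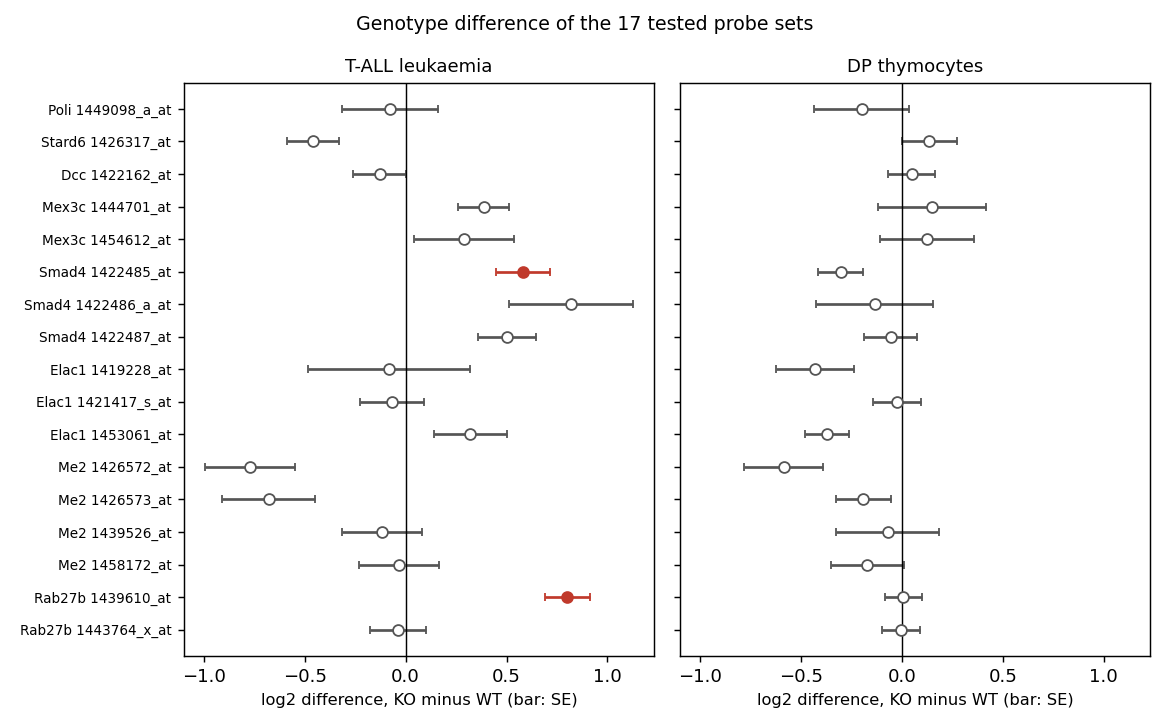
Log2 difference between KO and WT (points, with bars of 1 SE) for the 17 tested probe sets of the flanking genes, in leukaemia on the left and in DP thymocytes on the right. Filled red points passed (adjusted p under 0.05): Smad4 1422485_at at 0.58 and Rab27b 1439610_at at 0.80 in leukaemia, and no probe set in thymocytes.

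Smad4 encodes the common partner that receptor-activated SMAD proteins need to act on target genes in TGF-beta and BMP signalling. It was well above the control level on every array. Probe set 1422485_at gave 1335, 1497 and 1162 in KO leukaemias, against 972, 856 and 816 in WT leukaemias. Every KO leukaemia array was above every WT leukaemia array. In thymocytes the same probe set gave 1273, 1169 and 1368 in KO cells, against 1633, 1633 and 1441 in WT cells. There the KO arrays were all lower than the WT arrays, the reverse of the leukaemias.

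The rise of Smad4 1422485_at in KO leukaemias amounted to a log2 difference of 0.58 (SE 0.13, limma adjusted p = 0.0318). This call was close to the threshold. The adjusted p was 0.0523 without WT leukaemia 1, 0.123 without WT leukaemia 2, 0.0833 without WT leukaemia 3, 0.0844 without KO leukaemia 1, 0.0908 without KO leukaemia 2 and 0.0266 without KO leukaemia 3. The log2 difference was 0.54 among the leukaemia arrays with poly-A signal (1 KO and 2 WT) and 0.68 among those without it (2 KO and 1 WT), with adjusted p of 0.0994 and 0.435. In thymocytes the log2 difference was -0.30 (SE 0.11, adjusted p = 0.98). It was -0.18 among the thymocyte arrays without poly-A signal, all KO arrays and WT thymocyte 3.

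Smad4 probe set 1422487_at gave 2029, 1454 and 1871 in KO leukaemias, against 1175, 1268 and 1287 in WT leukaemias. These groups did not overlap, and the log2 difference was 0.50 (SE 0.15, limma adjusted p = 0.0695). Thymocytes had 1953, 2282 and 2446 in KO cells, against 2559, 2237 and 2138 in WT cells, which overlapped. The third Smad4 probe set, 1422486_a_at, gave 1640, 1217 and 2210 in KO leukaemias, against 826, 688 and 1381 in WT leukaemias. WT leukaemia 3 was above KO leukaemia 2 in this probe set, and the log2 difference of 0.82 (SE 0.31, adjusted p = 0.144) did not pass. All 3 probe sets thus had positive log2 differences in leukaemia, and their correlations with each other over the 12 arrays, as a description, were 0.572 to 0.777. With the 3 probe sets averaged, as 1 value per gene, the log2 difference was 0.63 (SE 0.12, adjusted p = 0.0117).

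The difference of the genotype effects between leukaemia and thymocytes came from 1 model of the 4 groups together, in which 9.99% of probe sets passed. It was 0.89 for Smad4 1422485_at (SE 0.17, limma adjusted p = 0.00588). This call held without each of the 12 arrays in turn. Among arrays without poly-A signal alone, where WT leukaemias and WT thymocytes have 1 array each and are assumed to vary like the KO groups, the value was 0.87 and the adjusted p 0.241. The other Smad4 probe sets gave 0.95 (adjusted p = 0.273) and 0.56 (adjusted p = 0.11), and did not pass.

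Smad4 also differed between cell types in wild-type samples. WT leukaemias were lower than WT thymocytes without overlap in all 3 probe sets, by log2 differences of -0.82 (SE 0.12, adjusted p = 0.00229), -1.32 (SE 0.35, adjusted p = 0.027) and -0.88 (SE 0.11, adjusted p = 0.00148). KO leukaemias against KO thymocytes gave 0.06, -0.37 and -0.32, none of which passed (smallest adjusted p = 0.187). Of the 4 groups, WT leukaemias had the lowest mean in each Smad4 probe set. These cell type contrasts use the same leukaemia arrays as the genotype contrast and are not independent of it.

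**Figure D2:**
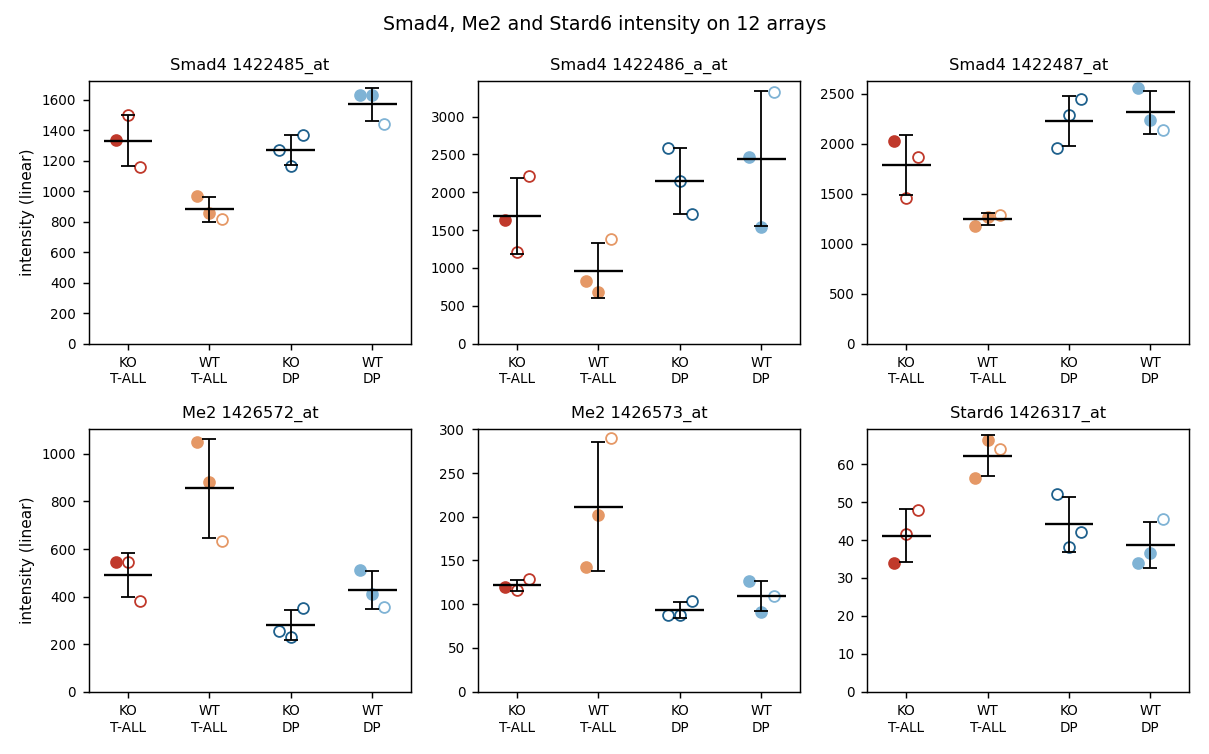
Intensity on a linear scale of the 3 Smad4 probe sets, 2 Me2 probe sets and Stard6 in each sample, by group (KO T-ALL, WT T-ALL, KO DP thymocytes, WT DP thymocytes). Filled circles are arrays with poly-A control signal and open circles arrays without it, horizontal lines are group means and bars 1 SD (n = 3). KO leukaemias lie above WT leukaemias for Smad4 1422485_at and 1422487_at and below them for the Me2 and Stard6 probe sets shown.

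Me2 encodes the mitochondrial NAD-dependent malic enzyme, which turns malate into pyruvate. It was measured by 4 probe sets. Probe set 1426572_at gave 546, 544 and 382 in KO leukaemias, against 1049, 881 and 635 in WT leukaemias. The thymocytes gave 255, 232 and 352 in KO cells, against 513, 410 and 355 in WT cells. In both cell types each KO array was below each WT array, although KO thymocyte 3 and WT thymocyte 3 were nearly equal. It was the only member with KO below WT without overlap in both cell types, a pattern that 0.987% of all tested probe sets had. Neither difference passed: the log2 difference was -0.77 in leukaemia (SE 0.22, limma adjusted p = 0.0695) and -0.58 in thymocytes (SE 0.20, adjusted p = 0.98). With the Gapdh ratio as a covariate the leukaemia value was -0.63 (adjusted p = 0.032).

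Me2 probe set 1426573_at gave 120, 116 and 128 in KO leukaemias, against 143, 202 and 290 in WT leukaemias. The WT leukaemias were all higher but spread widely, and the log2 difference of -0.68 (SE 0.23, limma adjusted p = 0.109) did not pass, but with the Gapdh ratio as a covariate it was -0.79 (adjusted p = 0.0354). In thymocytes it ran from 88.0 to 104 in KO cells and from 91.6 to 126 in WT cells, with overlap. The other 2 Me2 probe sets, 1439526_at and 1458172_at, ran from 87.2 to 150 in KO leukaemias and from 85.6 to 173 in WT leukaemias, with log2 differences of -0.12 and -0.03. Over the 12 arrays 1426572_at and 1426573_at correlated at 0.693 and 1439526_at and 1458172_at at 0.726, while correlations across these pairs ran from -0.471 to -0.0555. The Me2 probe sets therefore do not report 1 common signal, which the transcripts they match could bear on but which was not tested. The mean of all 4 had a log2 difference of -0.40 in leukaemia (SE 0.10, limma adjusted p = 0.0329) and -0.25 in thymocytes (SE 0.14, adjusted p = 0.954). Because the 4 do not share 1 signal, this mean is no measure of Me2 as a gene. No Me2 probe set passed between the leukaemia genotypes by itself in the main fit.

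Both leukaemias had more Me2 1426572_at signal than their thymocytes. The log2 difference was 0.78 between KO leukaemias and KO thymocytes (SE 0.20, limma adjusted p = 0.0261) and 0.97 between WT leukaemias and WT thymocytes (SE 0.22, adjusted p = 0.0149). Neither pair of groups overlapped. Probe set 1426573_at also rose in WT leukaemias over WT thymocytes (0.82, SE 0.24, adjusted p = 0.0428), while the KO contrast gave 0.33 (adjusted p = 0.0619). The remaining Me2 probe sets passed in neither contrast.

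Stard6 encodes a START domain protein, a family that binds lipids and sterols, and is best known from testis. It was dim. Probe set 1426317_at gave 34.0, 41.7 and 47.9 in KO leukaemias, against 56.3, 66.4 and 64.1 in WT leukaemias. Stard6 in thymocytes was at 52.1, 38.1 and 42.2 in KO cells, against 33.9, 36.5 and 45.6 in WT cells. WT leukaemias stood above the other 3 groups without overlap, and KO leukaemias were in the range of the thymocytes. The difference between leukaemia genotypes was -0.46 (SE 0.13, limma adjusted p = 0.0618) and did not pass, whereas WT leukaemias were higher than WT thymocytes by 0.52 (SE 0.12, adjusted p = 0.0182). The leukaemia genotype difference passed with the Gapdh ratio as a covariate (limma adjusted p = 0.029) and with poly-A signal as a block (0.0422). With any 1 array left out it did not pass (adjusted p 0.0507 to 0.204). In thymocytes the genotype difference was 0.14 (SE 0.14, adjusted p = 0.981).

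The leukaemia arrays that share a replicate number resembled each other across all probe sets, and with that number as a block more differences passed. The 7 of the 17 probe sets that passed in that fit were the 3 Smad4 probe sets (adjusted p = 0.0169, 0.00417 and 0.0471) and Rab27b 1439610_at (0.00485), higher in KO, and Me2 1426572_at (0.00486), Me2 1426573_at (0.0364) and Stard6 (0.0283), lower in KO. Mex3c 1444701_at reached 0.0537. The labels do not say what a shared number stands for. The Gapdh ratio rose with the number in both genotypes. For arrays 1, 2 and 3 it was 0.964, 2.00 and 2.98 in KO and 0.969, 1.02 and 2.48 in WT leukaemias. What RNA quality contributed to the likeness of arrays with equal numbers was not tested.

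Poli, the neighbour next to Mbd2, encodes DNA polymerase iota, which copies past damaged bases in translesion synthesis. Its probe set 1449098_a_at gave 158, 206 and 176 in KO leukaemias, against 270, 186 and 133 in WT leukaemias. Poli in thymocytes was at 106, 116 and 116 in KO cells, against 143, 183 and 86.4 in WT cells. The WT arrays of both cell types spread more widely than the KO arrays and enclosed them. The log2 difference was -0.08 in leukaemia (SE 0.24, limma adjusted p = 0.885) and -0.20 in thymocytes (SE 0.23, adjusted p = 0.984). KO leukaemias were higher than KO thymocytes by 0.60 (SE 0.12, adjusted p = 0.0108), and WT leukaemias differed from WT thymocytes by 0.47 (SE 0.31, adjusted p = 0.317). The SE of Poli in leukaemia, 0.24, was larger than the 0.13 of Smad4 1422485_at, so a difference of the same size was less detectable for Poli.

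Elac1 encodes the short form of tRNase Z, an endonuclease that trims the 3′ ends of transfer RNA precursors. Probe set 1453061_at gave 240, 166 and 148 in KO leukaemias, against 147, 129 and 149 in WT leukaemias, and these ranges overlapped. Thymocytes had 76.1, 75.3 and 74.4 in KO cells, against 97.4, 115 and 93.7 in WT cells. KO thymocytes were close together and all below the WT thymocytes. The log2 difference was 0.32 in leukaemia (SE 0.18, limma adjusted p = 0.321) and -0.37 in thymocytes (SE 0.11, adjusted p = 0.98), and the difference between these effects was 0.69 (SE 0.21, adjusted p = 0.0703). None passed.

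Elac1 1453061_at was higher in leukaemia than in thymocytes of either genotype, by 1.11 in KO cells (SE 0.17, limma adjusted p = 0.00313) and by 0.42 in WT cells (SE 0.12, adjusted p = 0.0356), with no overlap. Probe set 1419228_at gave 97.4, 84.0 and 29.5 in KO leukaemias, against 15.4, 21.5 and 24.1 in KO thymocytes, all of the thymocyte values being below the control level. Against the control level the KO leukaemias were at least 1.77-fold higher on geometric means. That contrast passed (adjusted p = 0.0385) but was lost without each array other than KO leukaemia 3 (adjusted p 0.0789 to 0.119). In WT cells it gave 101, 75.5 and 41.1 in leukaemias, against 38.4, 41.0 and 21.0 in thymocytes, with a log2 difference of 0.80 (SE 0.29, adjusted p = 0.0809, or 0.0036 with the replicate number as a block). In each of the 4 groups the array with the highest Gapdh ratio was the lowest in this probe set. With that ratio as a covariate the adjusted p was 0.0136 in KO cells and 0.00843 in WT cells. A further Elac1 probe set, 1421417_s_at, whose suffix marks probes that can match other transcripts, stayed below the control level at 7.88 to 22.6.

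Mex3c encodes an RNA-binding ubiquitin ligase. Probe set 1444701_at gave 98.0, 101 and 130 in KO leukaemias, against 76.3, 79.3 and 83.7 in WT leukaemias. Each KO leukaemia was above each WT leukaemia, and the log2 difference of 0.39 (SE 0.13, limma adjusted p = 0.102) did not pass. In thymocytes it ran from 146 to 216 in KO cells and from 103 to 209 in WT cells, with a log2 difference of 0.15 (SE 0.27, adjusted p = 0.988). Leukaemias were lower than thymocytes, with log2 differences of -0.66 in KO cells (SE 0.17, adjusted p = 0.0252) and -0.90 in WT cells (SE 0.24, adjusted p = 0.0304), without overlap. The brighter probe set 1454612_at ran from 1159 to 1430 in KO leukaemias and from 736 to 1484 in WT leukaemias and passed in no contrast. The correlation of the 2 Mex3c probe sets over 12 arrays was 0.471.

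**Figure D3:**
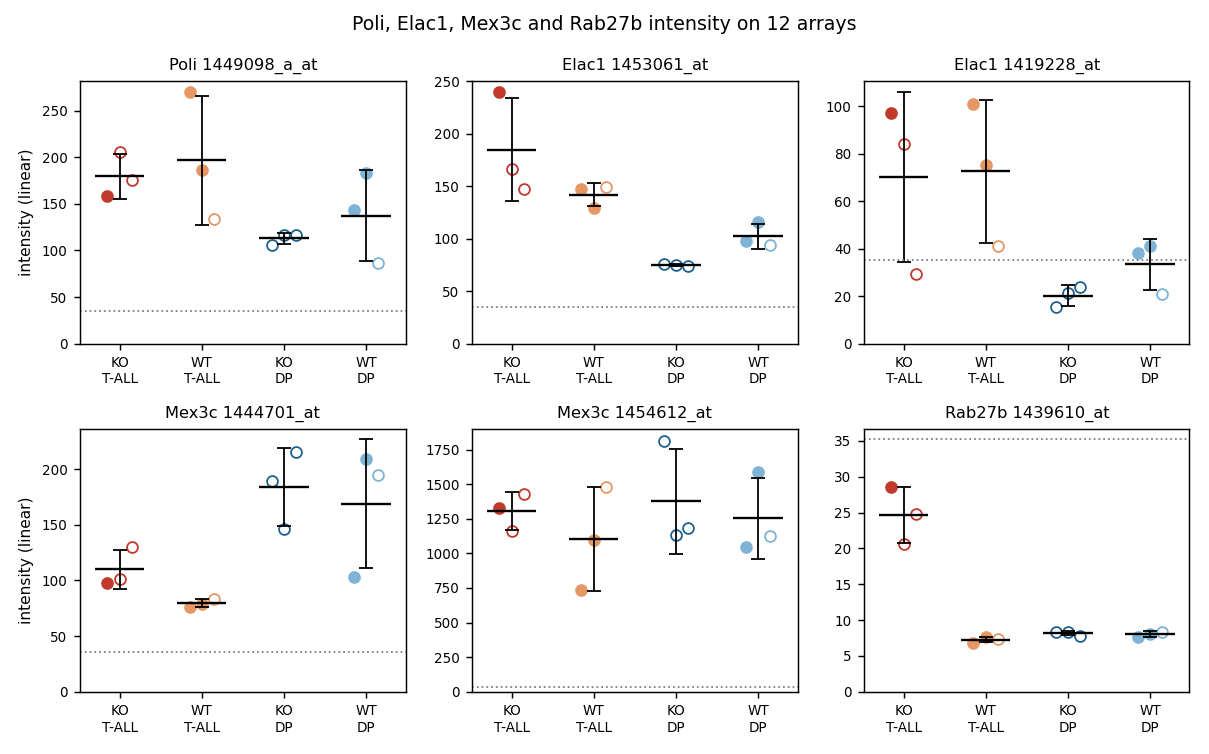
Intensity on a linear scale of Poli, 2 Elac1 probe sets, 2 Mex3c probe sets and Rab27b 1439610_at in each sample, by group, with symbols, means and SD (n = 3) as for Smad4 and the dotted line at the control level of 35.3. Rab27b lies at 20.6 to 28.5 in KO leukaemias, above every other array but below the dotted line.

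Dcc encodes the netrin-1 receptor that guides axons, and next to Mbd2 it is the neighbour on the other side from Poli. Its brightest probe set, 1422162_at, gave 33.6, 45.9 and 39.7 in KO leukaemias, against 42.0, 51.8 and 40.8 in WT leukaemias. In thymocytes it gave 33.5, 41.1 and 36.3 in KO cells, against 31.7, 40.7 and 33.3 in WT cells. These values lay around the control level and overlapped between genotypes in both cell types. The log2 difference was -0.13 in leukaemia (limma adjusted p = 0.603) and 0.05 in thymocytes (adjusted p = 0.989). The other 2 Dcc probe sets were at 5.04 to 15.2 on all 12 arrays.

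Rab27b encodes a small GTPase that docks secretory vesicles at the plasma membrane. Probe set 1439610_at gave 28.5, 20.6 and 24.8 in KO leukaemias, against 6.82, 7.57 and 7.36 in WT leukaemias. In thymocytes it gave 8.39, 8.28 and 7.80 in KO cells, against 7.58, 8.10 and 8.39 in WT cells. The KO leukaemias stood apart from the other 9 arrays, yet every value was below the control level, so no fold is given. Its log2 difference in leukaemia was 0.80 and depended on the constant added before taking logs (1.63 with 1 and 0.31 with 64). It passed in limma in leukaemia (adjusted p = 0.00419) and in the difference of genotype effects (adjusted p = 0.0019). Because this probe set reached the test through its 3 KO leukaemia arrays alone, a difference there was to be found by construction, and it counts for nothing beyond its values.

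The untested Rab27b probe set 1417214_at gave 15.8, 11.0 and 13.6 in KO leukaemias, against 5.85, 6.42 and 7.38 in WT leukaemias, in the same direction and also below the control level. Probe set 1443764_x_at, of a type that can match other transcripts, ran from 10.7 to 17.6 in KO and from 11.6 to 18.1 in WT leukaemias, and 1417215_at from 4.05 to 5.06 on all arrays. In KO thymocytes 1417214_at gave 8.67, 6.97 and 7.02, below the KO leukaemias without overlap and also below the control level. Ccdc68, a centriole-associated coiled-coil protein, was at 5.1 to 8.0 on all 12 arrays and was not detectable.

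Over the cell type contrasts as a whole, 5 of the 17 probe sets were higher and 1 lower in KO leukaemias than in KO thymocytes, against a background of 28.3% in either direction (16.2% higher, 12.1% lower). The higher ones were Poli, 2 of Elac1, Me2 1426572_at and Rab27b 1439610_at, and the lower one Mex3c 1444701_at. Of these, Rab27b 1439610_at had to differ because it reached the test through its KO leukaemias alone. In wild-type cells 4 were higher and 4 lower in leukaemia, against 30.8% (16.7% higher, 14.1% lower). The higher ones were Stard6, Elac1 1453061_at and 2 of Me2, and the lower ones the 3 of Smad4 and Mex3c 1444701_at. Poli and Elac1 1453061_at passed in KO cells without each array in turn, and Smad4 1422485_at and 1422487_at did so in WT cells. In KO cells Me2 1426572_at no longer passed without KO leukaemia 1 or 2 or KO thymocyte 1 or 2 (adjusted p 0.0767 to 0.0981), and Mex3c 1444701_at without KO leukaemia 1 or 2 or KO thymocyte 1 or 3 (0.0727 to 0.079). In WT cells Me2 1426572_at no longer passed without WT leukaemia 2 (0.0618), Smad4 1422486_a_at without WT leukaemia 1 or 2 or WT thymocyte 1 or 3 (0.0538 to 0.0989), and Stard6 without WT leukaemia 2 or 3 or WT thymocyte 1 or 2 (0.0509 to 0.0743). The WT calls of Elac1 1453061_at, Me2 1426573_at and Mex3c 1444701_at were each lost without any 1 of 5 of the 6 arrays, and were kept only without WT thymocyte 2 for Elac1 (otherwise 0.0611 to 0.11), without WT leukaemia 1 for Me2 (0.0683 to 0.122) and without WT thymocyte 1 for Mex3c (0.0603 to 0.0952). With the replicate number as a block, Elac1 1419228_at also passed in WT cells, where the background was 42.8%. The KO and WT contrasts use different arrays, but each shares its leukaemias with the genotype contrast.

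The neighbourhood beyond the 9 genes was examined in the same fits. Within 10 places of Mbd2 lie 11 other protein-coding genes, of which 7 had a tested probe set, 23 probe sets in all. In leukaemia 6 of the 23 passed, and 5 of these belong to Tcf4, which is 7 places from Mbd2 and encodes the E protein E2-2, a basic helix-loop-helix transcription factor. Tcf4 1416723_at gave 325, 243 and 407 in KO leukaemias, against 17.8, 31.2 and 28.7 in WT leukaemias, where the WT values were below the control level. In thymocytes it gave 325, 314 and 310 in KO cells, against 294, 291 and 365 in WT cells. WT leukaemias were thus the group that stood apart, and KO leukaemias overlapped both kinds of thymocytes. Against the control level, Tcf4 1416723_at was at least 9.02-fold higher in KO leukaemias (limma adjusted p = 0.000253), and in thymocytes its log2 difference was 0.01 (SE 0.12, adjusted p = 0.998). The Tcf4 probe set that did not pass in leukaemia, 1416725_at, stayed below the control level and gave 0.04 (adjusted p = 0.847).

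The other call among these neighbours was 4930503L19Rik 1454702_at, 3 places from Mbd2, which averaged 54.3 in KO and 153 in WT leukaemias (log2 difference -1.28, SE 0.24, limma adjusted p = 0.0148). Its other probe set, 1454701_at, gave -0.77 (SE 0.24, adjusted p = 0.092) and did not pass. Without Tcf4, 1 of 17 probe sets of these other genes passed in leukaemia, and 0 of 23 passed in thymocytes in limma (1 had an unadjusted p under 0.05). In the difference of genotype effects 6 passed, the 5 of Tcf4 and Mbd1 1417968_a_at (0.92, SE 0.25, limma adjusted p = 0.0423). The other Mbd1 probe sets gave 0.44, -0.16, -0.38 and -0.22 and did not pass (smallest adjusted p = 0.26). Between genotypes Mbd1 1417968_a_at gave 0.34 in leukaemia (SE 0.15, limma adjusted p = 0.19) and -0.58 in thymocytes (SE 0.19, adjusted p = 0.98). Neither passed. Mbd1, at 10 places, encodes another reader of methylated DNA.

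Calls were counted in growing windows around Mbd2, without Mbd2 itself. In leukaemia 8 of 40 probe sets within 10 places passed (20%), 19 of 101 within 25 places (18.8%), 33 of 178 within 50 places (18.5%) and 104 of 696 on the whole chromosome (14.9%), beside the 13.4% of all probe sets. The count within 10 places includes the 5 probe sets of Tcf4. In thymocytes 0 passed in limma in any window, and unadjusted p-values were under 0.05 for 4 of 40, 5 of 101, 7 of 178 and 26 of 696. Groups of thymocytes did not overlap for 15% of the probe sets within 10 places, 9.9% within 25, 8.43% within 50 and 7.76% on the whole chromosome. The median absolute log2 difference within 10 places was 0.277 in leukaemia, beside 0.197 over all probe sets, and 0.110 in thymocytes, beside 0.109. Neighbouring probe sets can measure 1 gene, so these counts are a description with no test.

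**Figure D4:**
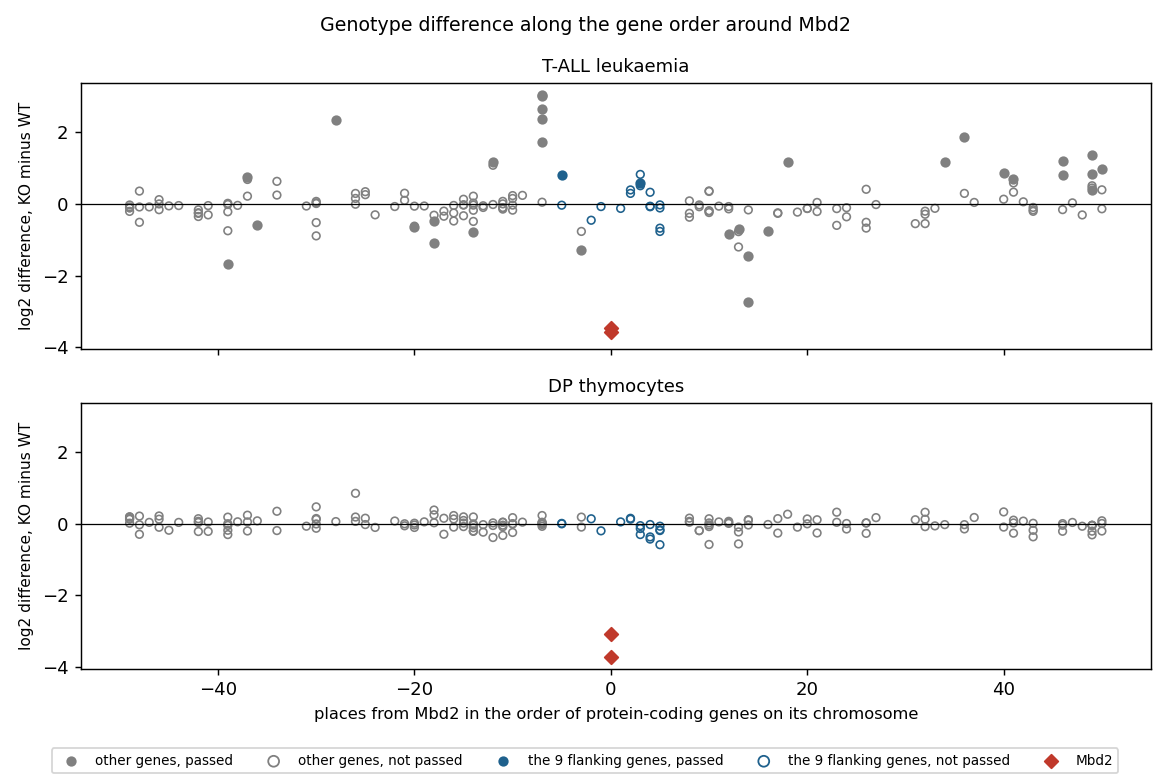
Log2 difference between KO and WT of each tested probe set against its gene's place in the order of protein-coding genes around Mbd2 (0), in leukaemia above and in DP thymocytes below. Filled points passed (adjusted p under 0.05), blue points are the 9 flanking genes and red diamonds Mbd2. In leukaemia 33 of the 178 points beside those of Mbd2 passed, on both sides and with both signs, and in thymocytes none did.

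The partners of the flanking genes were looked at in lists of pathway members and relatives. Each gene had 1 probe set, that of the highest mean. The shares of all tested probe sets set beside the lists include dimmer probe sets and several per gene. The share over all genes with 1 probe set each is not given here, so these shares are unlike measures. The lists were also chosen with earlier results of these data known. Their shares are a description and lend nothing to a flanking gene. In the TGF-beta and SMAD list around Smad4, 10 of 34 tested genes were higher and 1 lower in KO leukaemias, with a median log2 difference of 0.29 beside -0.05 over all probe sets. These are 29.4% and 2.94% of the list, where 7.92% of all tested probe sets were higher and 5.45% lower. The ligand Tgfb2 averaged 2029 ± 223 in KO and 13.0 ± 1.61 in WT leukaemias (SD, n = 3 each), a WT level below the control level, and was at least 57.3-fold higher in KO. The co-receptor Tgfbr3 averaged 753 ± 241 in KO and 97.2 ± 12.5 in WT leukaemias. The receptor Acvr1b averaged 1281 ± 119 in KO and 461 ± 78.7 in WT leukaemias, and the receptor Bmpr2 888 ± 24.2 in KO and 401 ± 32.0 in WT leukaemias. The limma adjusted p was 0.000465 for Tgfbr3, 0.000764 for Bmpr2 and 0.00113 for Acvr1b. For Tgfb2, 1 of the 10, no p-value is given. With a mean of 13.0 in WT leukaemias and in KO thymocytes, it may have reached the test through its KO leukaemias alone. In thymocytes 0 of the 34 passed in limma, and 0 had an unadjusted p under 0.05. Between WT leukaemias and WT thymocytes 2 of the 34 were higher and 6 lower (5.88% and 17.6%, where 16.7% and 14.1% of all tested probe sets were), among the lower ones Tgfbr1 with 400 ± 85.5 in leukaemias and 1187 ± 32.9 in thymocytes.

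In the list of RAB27 relatives and exocytosis effectors, 4 of 16 genes were higher and 1 lower in KO leukaemias (25% and 6.25%, beside 7.92% and 5.45% of all tested probe sets). Rab27a, the close paralog of Rab27b, averaged 1201 ± 265 in KO and 306 ± 46.5 in WT leukaemias (SD, n = 3 each; log2 difference 1.90, limma adjusted p = 0.0012). The effector Sytl1 was higher too, by 1.79 (adjusted p = 0.000285). The effector Sytl2 averaged 208 ± 81.6 in KO and 27.6 ± 8.87 in WT leukaemias, where it was below the control level, so that it was at least 5.53-fold higher in KO (adjusted p = 0.00409). Myo5a, the motor that Rab27a binds through an adaptor on melanosomes, averaged 14.4 ± 2.92 in KO leukaemias, below the control level, and 222 ± 43.1 in WT leukaemias, at least 6.22-fold lower in KO (adjusted p = 7.94e-05). Rab27a was thus far above the control level in cells in which Rab27b was below it.

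In the list of tRNA 3′ end processing around Elac1, 0 of 16 genes were higher and 2 lower in KO leukaemias (0% and 12.5%, beside 7.92% and 5.45% of all tested probe sets), with a median of -0.63. These were the RNase P subunits Pop1 (150 ± 19.5 in KO and 307 ± 41.1 in WT leukaemias; limma adjusted p = 0.0056) and Pop5 (467 ± 106 in KO and 883 ± 149 in WT leukaemias; adjusted p = 0.0285). The same list had 12 of 16 genes higher in WT leukaemias than in WT thymocytes and 6 of 16 in KO leukaemias than in KO thymocytes, with 0 lower in both. These are 75% and 37.5% of the list, beside 16.7% and 16.2% of all tested probe sets. Elac2, the long form of tRNase Z, was at 531 ± 50.7 in WT leukaemias and 221 ± 6.25 in WT thymocytes (log2 difference 1.20, adjusted p = 0.000393).

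In the remaining lists the shares called in KO leukaemias were mostly near the 7.92% higher and 5.45% lower of all tested probe sets. The netrin list had a larger share higher, 15.4%. The genes are named as members of their lists. Of the malate metabolism genes around Me2, 1 of 11 was higher (9.09%) and 1 lower (9.09%), namely Nnt, the mitochondrial transhydrogenase, with 644 ± 58.2 in KO and 315 ± 35.0 in WT leukaemias (limma adjusted p = 0.00283), and fumarase Fh1 with 2320 ± 260 in KO and 3272 ± 240 in WT leukaemias (adjusted p = 0.0422). Of the polymerases and translesion factors around Poli, 2 of 21 were higher (9.52%, Polk and Hltf) and 2 lower (9.52%, Pold2 and Pole). Of the netrin ligands and receptors around Dcc, 2 of 13 were higher (15.4%, Trio and Rgmb) and 1 lower (7.69%), the ligand Ntn1. Ntn1 averaged 26.0 ± 2.13 in KO leukaemias, below the control level, and 97.0 ± 10.9 in WT leukaemias, at least 2.74-fold lower in KO (adjusted p = 0.000393). Of the START family around Stard6, 1 of 14 was higher (7.14%, Acot11), and of the 3 other MEX3 genes 0 passed in limma or had an unadjusted p under 0.05. In thymocytes 0 of the 128 tested entries of all these lists passed in limma, and 3 had an unadjusted p under 0.05.

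Likeness over the 12 arrays was described for the brightest probe set of each gene above the control level on all arrays. Smad4 1422487_at was most like Gngt2 (Pearson r 0.970) and Plekhf1 (0.957), and Me2 1426572_at most like Psmd13 (0.991) and Rrp7a (0.985). Elac1 1453061_at was most like Smpd5 (0.972) and Etfbkmt (0.954), Poli most like Tubd1 (0.938) and Ttc21b (0.937), and Mex3c 1454612_at most like Mak (0.874) and Krtap5-3 (0.870). No flanking gene was among these. The arrays share groups and RNA quality, so these values describe the 12 arrays only.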

How the data were processed

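The authors deposited 1 table of probe set intensities on a linear scale (3.07 to 21620) for 12 arrays, made from 7 µg of total RNA per the labels. How the scans were summarized and normalized is not given in the sources used here. The deposited values had log2 medians of 5.71 to 5.79 per array and were not normalized again. Probe sets with 1 gene symbol were used, 34945 of 45101, with 932 of several genes and 64 controls left aside. Values were taken as log2(intensity + 16). A probe set was tested, as its own feature, if 3 or more arrays had it above their 25th percentile, which left 27453.

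Groups were compared with limma 3.58.1 (lmFit and eBayes) in R 4.3.3, 2 groups per fit, and all 12 arrays for the difference of effects. The fit was tested on simulated data. Where every array of a group was below the control level, a fold is given as a lower bound, the geometric mean of the other group over that level. Arrays per group were 3, and an exact permutation of 3 against 3 samples cannot give a p below 0.1. Plots were made with matplotlib 3.10.9.

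Named are Mbd2, each member, of the other neighbours within 10 places and of 8 lists those that passed (at most 4 per list and comparison, by p), and the 2 genes most like each member. Members and lists were chosen with earlier results of these data known. Gene order came from the RefSeq table, which matched 34741 probe sets; its build may not be the arrays', so no coordinates are given.

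Deviations from group means correlated between arrays of equal number at 0.425, 0.224 and 0.588 for the leukaemia genotypes and at 0.415, 0.453 and 0.586 for the WT cell types, which by a limit of 0.1 counts as paired. For the thymocyte genotypes they were -0.511, 0.0966 and -0.483 and for the KO cell types -0.396, 0.107 and -0.463, which does not. In the leukaemias, arrays numbered 1 or 3 are also alike in poly-A signal. In the WT cell types arrays of every number are alike in it. Number 3 had the highest Gapdh ratio in both WT groups (2.48 in leukaemia and 3.68 in thymocytes). What these properties contributed to the pairing was not tested. Alternatives were other constants, normalizations, filters, 1 value per gene, moderation, array weights, the replicate block, poly-A sets, the Gapdh ratio as a covariate and leaving out each array.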

Additional observations from a re-analysis of the deposited data

Results flagged for a closer look

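For Smad4 1422485_at the genotype effect differed between leukaemia and DP thymocytes by the test of that difference. Smad4 1422485_at had a difference of effects of 0.89 on the log2 scale (limma adjusted p = 0.00588), with KO above WT in leukaemia and below it in thymocytes. The thymocyte difference did not pass by itself (-0.30, adjusted p = 0.98). In the other Smad4 probe sets the difference of effects did not pass (adjusted p = 0.273 and 0.11). Sex cannot be told apart from the difference of effects. Rab27b 1439610_at also gave a value past the threshold, 0.79 (adjusted p = 0.0019), but every value was below the control level and it reached the test through the KO leukaemias alone, so that this value follows from the filter and is no result. Groups of 3 arrays were too small for a search for single outlying arrays.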

How the results depend on the processing

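No called difference of a flanking gene reversed among 1737 alternative values, 1 for each probe set, comparison and setting. Of these values 1502 stayed on their side of the threshold with the same direction. A call was lost in 74 and gained in 55, and 106 uncalled values changed sign. Flanking probe sets called in leukaemia, 2 of 17, became 5 with quantile normalization, 7 with array weights and 7 with the replicate block. They became 6 with all 12 arrays in the fit, 4 with poly-A signal as a block and 5 with the Gapdh ratio. There was 1 with trend and robust, and 0 with 1 probe set per gene (of 8). Leaving out 1 array gave 1 to 3. With 1 mean per gene, Smad4 (limma adjusted p = 0.0117), Stard6 (0.0326) and Me2 (0.0329) passed in leukaemia. Over all probe sets the leukaemia count of 3669 became 6181 with the block and 0 without poly-A signal only, where WT had 1 array, and 1897 to 3378 without 1 array.

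In thymocytes no flanking probe set was called under any of these (0 to 0 without 1 array). The 3 calls of the whole array became 5 with centring on the 75th percentile, trend and robust or the Gapdh ratio, 7 with gene means, 20 with array weights, 14 with all 12 arrays, 1 with the poly-A block or without poly-A signal only, and 0 with the replicate block, where numbers do not pair and Mbd2 1417165_at had an adjusted p of 0.211; they were 0 to 2 without 1 array.

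For the difference of effects, 2742 became 4512 with array weights, 4369 with the Gapdh ratio and 729 without poly-A signal only (2051 to 2924 without 1 array), and the 2 flanking calls 1 with the median filter, 0 with 1 probe set per gene or without poly-A signal only, 5 with array weights and 4 with the Gapdh ratio (2 to 4). In KO cells 7774 calls between cell types became 4559 with 1 probe set and 4837 with 1 mean per gene (5482 to 7692), and the 6 flanking calls 3 and 2, and 3 with the poly-A block or without poly-A signal only (3 to 6). In WT cells 8452 became 5257 and 5488 (5822 to 8623), and the 8 flanking calls 4 and 3, and 5 with no filter (2 to 5). In the difference of effects, Smad4 (limma adjusted p = 0.00552) and Stard6 (0.0388) passed with 1 mean per gene. Fits of 1 value per gene test fewer features, and other causes were not tested. Fits of arrays with poly-A signal only could not be made for thymocytes, the difference of effects or KO cells, nor fits without it for WT cell types. Signal near the control level limits Dcc, Stard6, Rab27b and Ccdc68.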
